A study of Mus musculus with 4 samples.

Results

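The islet peptide hormones are the secreted products that define the endocrine cell types of the pancreas. They were followed here through the 8 genes Ins2, Iapp, Gcg, Sst, Ppy, Pyy, Npy and Ghrl. All 9 probes that the platform annotation assigns to these symbols were taken, of 46632 probes on the array. Ghrl had 2 probes and each other gene 1. All 9 passed the filter on dim probes, which asked for detection (a detection p under 0.05) in both samples of 1 or the other genotype. RNA of isolated islets was measured on 4 Illumina bead arrays, 2 from wild type mice and 2 from mice in which Bmpr1a, which encodes a cell surface receptor of bone morphogenetic proteins, was knocked out under Pdx1 control. Both genotypes shared an age of 12 weeks and a C57BL/6 background. Pdx1 is active in the developing pancreas and later mainly in beta cells, which limits the knockout to cells of that history. Whether wild type mice carried a Cre transgene is not stated, so an effect of such a transgene and that of the deletion cannot be told apart. It is likewise not stated if samples of 1 genotype are separate mice, and p-values then reflect only how far these samples spread, possibly for technical reasons.

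Insulin, encoded by Ins1 and Ins2 in the mouse, is made by beta cells and lowers blood glucose, and islet amyloid polypeptide (Iapp) is stored and released with it. Glucagon (Gcg) from alpha cells raises blood glucose, somatostatin (Sst) from delta cells restrains both neighbours, and pancreatic polypeptide (Ppy) comes from PP cells. Peptide YY (Pyy) and neuropeptide Y (Npy) belong to the same family as Ppy and share its folded shape, and ghrelin (Ghrl) is the product of the rare epsilon cells.

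Npy was the hormone gene whose transcript rose in knockout islets, while those of the 6 abundant hormones lay near the top of the intensity range on every array and did not pass the test. Over all 15639 tested probes, 2203 were higher in knockout islets (14.1%) and 1785 lower (11.4%) at an adjusted p below 0.05, so 55.2% of the calls were upward. With median scaling 71.7% were upward and the median change of all tested probes was 0.21 on the log2 scale, against 0.05 with quantile normalization. Without wild type 1 or wild type 2, 675 and 664 were higher and 966 and 812 lower. Of the 9 hormone probes 1 was called, beside 25.5% of all tested probes called in either direction. Bmpr1a had 2 probes, of which 1 was above background on none of the 4 arrays. The other had raw intensities of 793 and 851 in wild type and 887 and 687 in knockout islets. Its change of -0.28 ± 0.14 (SE, log2) did not pass (adjusted p = 0.204, limma) and was 0.01 with median scaling. Whether either probe lies in the deleted stretch is not known here, and they do not check the genotype labels.

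**Figure D1:**
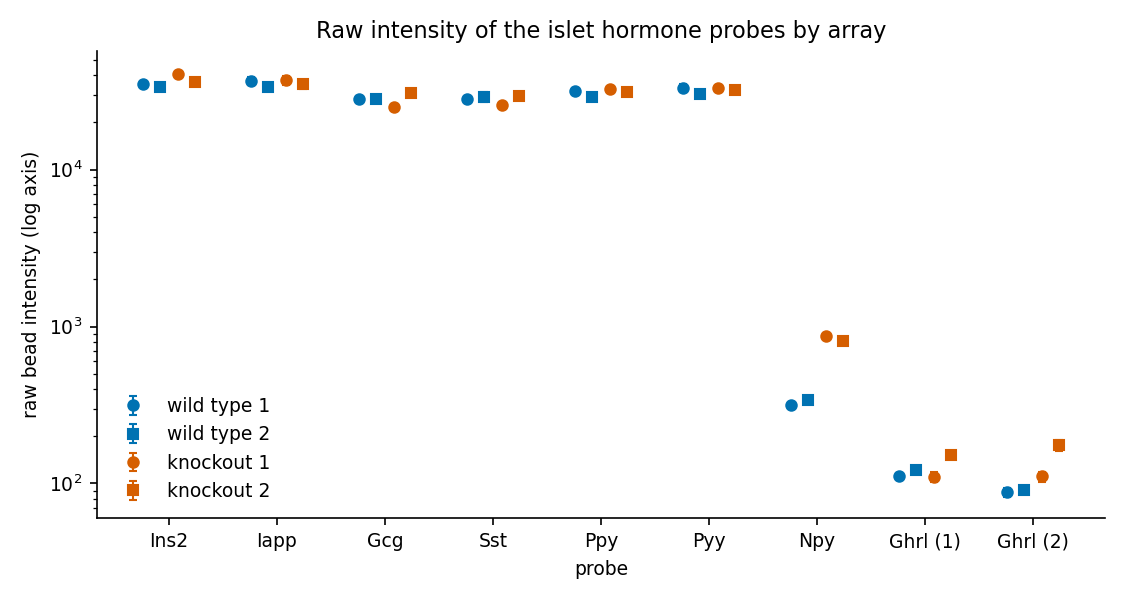
Raw bead intensity (log axis) of the 9 hormone probes on wild type arrays 1 and 2 (blue) and knockout arrays 1 and 2 (orange), with the standard error over beads as bars. The 6 abundant hormones sit above 25000 on every array, Npy is higher on both knockout arrays, and the Ghrl probes lie near background.

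Ins2, the insulin gene measured here, had raw intensities of 35327 on wild type 1, 33760.1 on wild type 2, 40522 on knockout 1 and 36436 on knockout 2. Values below follow the same order. It was thus higher on both knockout arrays, and on knockout 1 it was the brightest of all probes. On the normalized log2 scale the wild type mean was 15.08 ± 0.08 and the knockout mean 15.21 ± 0.03 (SD, n = 2). The change of 0.13 ± 0.12 (SE, log2) did not pass the test (adjusted p = 0.482, limma), with a 95% interval of 0.887 to 1.35 for the ratio of knockout to wild type. The transcripts of Ins1 and Ins2 are close copies, so the probe may read both genes. No probe carried the symbol Ins1, which was not analysed here.

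Iapp, the amyloid-forming partner of insulin in beta cell granules, gave 36837 and 33792 in wild type and 37059 and 35048 in knockout islets. The genotypes overlapped, and Iapp was the brightest probe on wild type 1. Its change was -0.08 ± 0.13 (SE, log2, adjusted p = 0.697, limma), with a 95% interval of 0.766 to 1.18 for the ratio. The sign was positive with median scaling (0.12), with the authors' processed values (0.09) and without wild type 1 (0.005). The raw means differed by 0.03 on the log2 scale, upward.

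Gcg, the alpha cell hormone, gave 28071 and 28145 in wild type and 25206 and 30637 in knockout islets. Sst, the delta cell hormone, gave 28280.4 and 29159 in wild type and 25682 and 29532 in knockout islets. For both genes knockout 1 was the lowest of the 4 arrays and knockout 2 the highest, so the knockout values lay on either side of the wild type values. The knockout arrays differed from each other by 2.75 standard errors of the beads for Gcg and by 2.14 for Sst, and the wild type arrays by 0.0423 and 0.337. The normalized changes were -0.02 ± 0.14 for Gcg and -0.06 ± 0.13 for Sst (SE, log2, adjusted p = 0.933 and 0.751, limma). The 95% intervals of the ratio were 0.779 to 1.25 for Gcg and 0.773 to 1.19 for Sst. Both signs turned with median scaling (0.08 and 0.03) and without knockout 1 (0.11 and 0.02), and that of Gcg with the authors' processed values (0.01).

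Ppy, the hormone of PP cells, gave 31892 and 28891 in wild type and 32677 and 31386 in knockout islets. Pyy, its relative, which islets make alongside the other hormones, gave 33349 and 30525 in wild type and 33101 and 32419 in knockout islets. In both genes wild type 2 was the lowest array, and the genotypes overlapped. The change was 0.07 ± 0.13 for Ppy and -0.01 ± 0.13 for Pyy (SE, log2, adjusted p = 0.726 and 0.963, limma). The 95% intervals of the ratio were 0.843 to 1.31 and 0.799 to 1.23. Ppy took the other sign with cyclic loess (-0.05) and without wild type 2 (-0.02). Pyy did so with median scaling (0.13), the authors' processed values (0.09) and without wild type 1 (0.08).

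The position of these probes on the arrays bears on how their values can be read. Ins2 ranked 3, 8, 1 and 2 among all probes on wild type 1, wild type 2, knockout 1 and knockout 2, and Iapp ranked 1, 6, 6 and 5. Pyy ranked 6, 18, 11 and 11, and Ppy 12, 27, 12 and 16. Sst ranked 24, 25, 37 and 23, and Gcg 27, 29, 42 and 19. The rank of a probe also depends on its binding, so these ranks do not order the hormones by transcript number. Over the 6 genes and 4 arrays the intensity lay between 62.2% and 100% of the brightest probe of the same array.

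The intensity curve was flat in this region. The brightest probe was only 1.34 to 1.48 times the probe ranked 30 on the same array, and 2.05 to 2.18 times the probe ranked 100. From rank 100 to rank 1000 the intensity dropped 5.74-fold to 6.81-fold. Between 80 and 97 probes per array exceeded 50% of the highest value. The highest value was held by 1 probe on each array. Each value is a mean over beads, so unequal values do not show that no bead reached a ceiling. No saturation flag is given with the values.

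**Figure D2:**
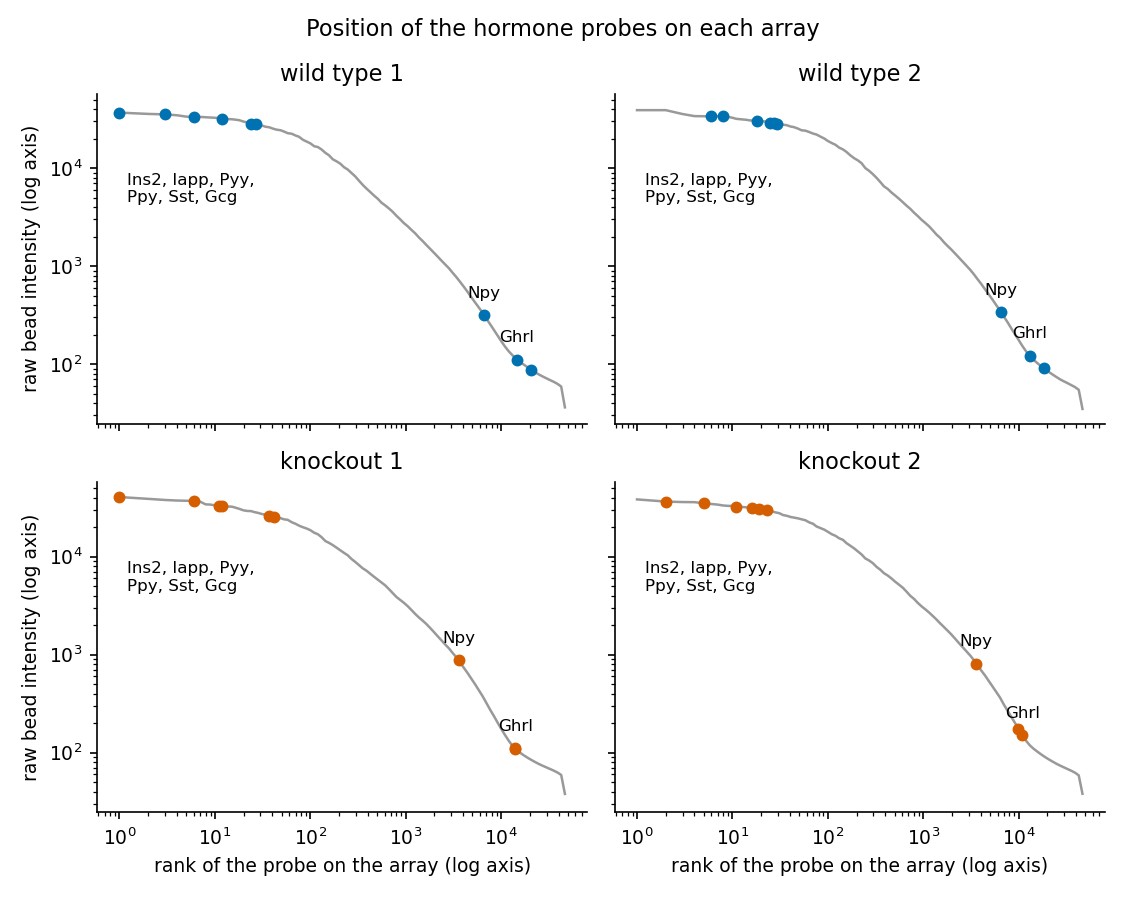
Raw bead intensity against the rank of the probe on its array (both log axes), 1 panel per array, with all probes as a grey line and the hormone probes as points. The 6 abundant hormones lie on the flat upper end between ranks 1 and 42, Npy moves from ranks 6670 and 6516 in wild type to 3581 and 3599 in knockout islets, and the Ghrl probes lie at rank 9920 or lower.

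Few probes were called in the region that holds the abundant hormones. Among the 30 brightest probes by mean log2 raw intensity 1 was called (3.33%), and among the next 70 also 1 (1.43%). The share was 17.6% for ranks 101 to 1000 and 21.0% for ranks 1001 to 5000. The median size of the raw log2 change was 0.0567 for the 30 brightest probes, 0.120 for the next 70 and 0.286 for ranks 101 to 1000. The called probes, named after their values were seen, were those of Prnp, the prion protein gene, and Slc35b1, a nucleotide sugar transporter gene. Prnp went from 24254 and 24326 in wild type to 38756 and 35978 in knockout islets, a change of 0.60 ± 0.12 (SE, log2, adjusted p = 0.0168, limma). Its wild type values lay below the lowest value of the 6 abundant hormones (25206, Gcg on knockout 1). Slc35b1 changed by 0.43 ± 0.12 (adjusted p = 0.0453).

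The spread between beads was also read at the top of the range. The coefficient of variation over beads was 17.5% to 39.6% for the 6 abundant hormones, highest for Iapp at 36.3% to 39.6%. The median over all 30 brightest probes was 22.7%, against 20.8% for the next 70, 21.1% for ranks 101 to 1000 and 28.9% for ranks 5001 to 10000. Counting bead error only, the Ins2 difference between genotypes was 3.05 standard errors, and those of Iapp, Gcg, Sst, Ppy and Pyy were between -0.759 and 1.32. Quantile normalization assigns 1 value per rank, as in Pyy, which ranked 11 on both knockout arrays and had a knockout SD of 0 there. A missing call at this end of the range therefore does not show that the array signal was unchanged. The intervals given for the 6 abundant hormones describe the normalized array signal only. Whether the signal stayed proportional to the transcript was not tested.

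Npy, a peptide best known as a neurotransmitter and also made in islet cells, gave raw intensities of 315 and 340.3 on the wild type arrays and 873 and 811 on the knockout arrays. Both knockout values were above both wild type values, and the arrays of a genotype differed by 1.31 standard errors of their beads in wild type and by 1.27 in knockout islets.
On the normalized log2 scale the wild type mean of Npy was 8.13 ± 0.05 and its knockout mean 9.52 ± 0.01 (SD, n = 2). It rose by 1.38 ± 0.12 (SE, adjusted p = 0.000886, limma), a ratio of 2.61 with a 95% interval of 2.13 to 3.19. Of all 15639 tested probes 233 had a larger upward change. Npy remained past the test under all 13 alternatives, with changes of 1.16 to 1.63, and without any 1 of the 4 arrays the change was 1.36 to 1.43 (adjusted p = 0.00312 to 0.0124).

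Npy was set against its relatives on the same arrays. The change of Npy exceeded that of Ppy by 1.31 and that of Pyy by 1.39 on the log2 scale. An exact two-sided permutation test of each within-array difference gave p = 0.333, the lowest that 2 against 2 arrays can give, and 0.667 adjusted over the 28 pairs of hormone genes. No pair could pass at this number of arrays. Ppy and Pyy sit at the top of the range and Npy far below it, so their changes were read on different parts of the intensity curve.

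The promoter bases of these relatives are shown because Npy was called and Ppy and Pyy were not, a difference that the design cannot test. They are the 100 bases before the annotated start, from RefSeq on GRCm38.p6. For Pyy, start site 1 of 2 is shown. Bases are in lower case, with matches to TATAA, the core of the TATA box, or to TATAAA in capitals.
Npy, chr6:49822610-49822709, plus strand: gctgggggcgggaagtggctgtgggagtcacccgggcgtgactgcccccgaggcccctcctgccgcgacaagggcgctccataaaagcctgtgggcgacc
Ppy, chr11:102101320-102101419, minus strand: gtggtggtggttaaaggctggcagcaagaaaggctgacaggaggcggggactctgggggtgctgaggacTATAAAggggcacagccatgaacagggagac
Pyy, chr11:102107833-102107932, minus strand: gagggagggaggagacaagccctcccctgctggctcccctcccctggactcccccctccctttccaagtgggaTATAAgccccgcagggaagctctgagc
Ppy and Pyy lie next to each other on chromosome 11. Of the 8 hormone genes 7 had an entry in the promoter table, and Ins2 did not. The 250 bases before each start were searched on both strands. TATAAA was found in Gcg and Ppy, and 12.4% of all 32851 promoter windows of the same length hold it. TATAA, which overlaps it, was found in Iapp, Gcg, Ppy and Pyy, against 22.8% of windows. The cyclic AMP response element TGACGTCA was found in Sst, where it begins 48 bases before the start, against 1.55% of windows. Of motifs bound by Smads, the transcription factors downstream of bone morphogenetic protein receptors, GGCGCC was found in Sst (9.59% of windows) and GTCTAGAC in no hormone promoter (0.167% of windows). These letters were not seen in the Npy or Ghrl windows, and a match is a description of the sequence only. Exact letters alone were searched, so the lack of capitals does not show that Npy has no similar sequence.

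Ghrl, the epsilon cell hormone, was measured near background by 2 probes that differed in size of change. The first, ILMN_2598022, gave 111 and 122 in wild type and 110.1 and 151 in knockout islets, so the genotypes overlapped and knockout 2 was highest. Its detection p was 0.0487 and 0.0243 on the wild type arrays, close to the limit of 0.05, and 0.0237 and 0.00873 on the knockout arrays. The change of 0.34 ± 0.26 (SE, log2) did not pass the test (adjusted p = 0.370, limma).

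The second Ghrl probe, ILMN_2643658, gave 88.1 and 91.2 in wild type and 111 and 175 in knockout islets. Both knockout values were above both wild type values, and knockout 2 was again the highest. The wild type values were not well above background, and the knockout values were. The detection p-values were 0.158 and 0.109 on the wild type arrays and 0.0231 and 0.00499 on the knockout arrays. With wild type values raised to the lowest level detected on their array, the ratio was 1.60 on the background-corrected and normalized scale. That ratio makes no allowance for the spread between arrays. The limma fit gave the measured ratio a 95% interval of 1.22 to 3.61, which reaches below 1.60. On raw intensities the ratio with raised wild type values was 1.29. The measured change of 1.07 ± 0.32 (SE, log2) missed the threshold (adjusted p = 0.0569, limma) and passed under 6 of the 12 alternatives in which the probe was tested. Without knockout 1 the second probe was at 1.56 (adjusted p = 0.00282) and the first at 0.69 (adjusted p = 0.0442), and without knockout 2 they were at 0.55 and -0.04. The knockout arrays differed by 3.71 standard errors of the beads at the first probe and by 3.79 at the second, so the size of the Ghrl value depends on 1 library.

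**Figure D3:**
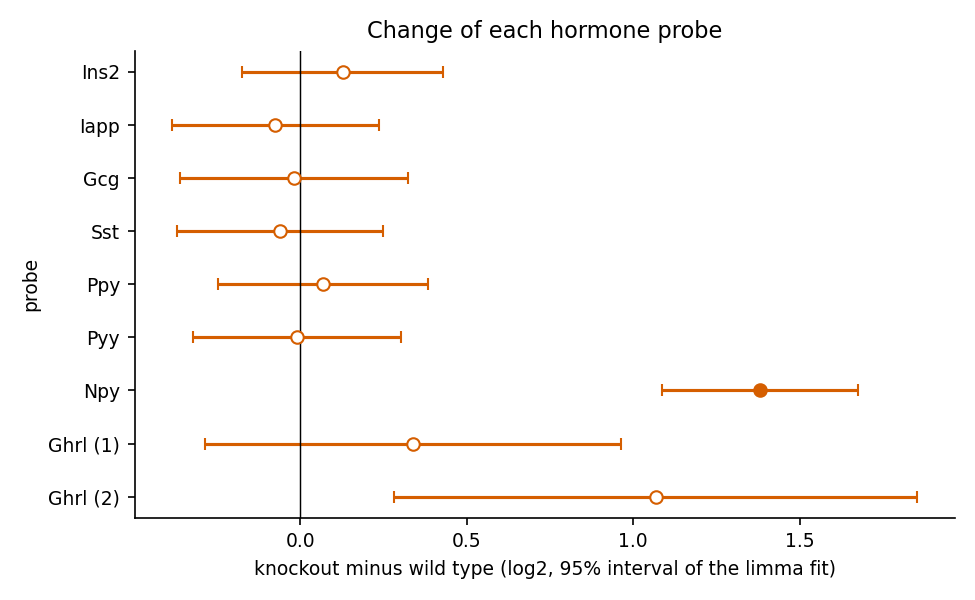
Change of each hormone probe, knockout minus wild type on the normalized log2 scale, with the 95% interval of the limma fit (4 arrays). Filled points passed the adjusted threshold of 0.05, which Npy did at 1.38, and Ghrl (1) and Ghrl (2) are probes ILMN_2598022 and ILMN_2643658.

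Across the 9 hormone probes, 3 had no overlap between the genotypes (Ins2, Npy and the second Ghrl probe), beside 67.9% of all tested probes. All 3 were higher in knockout islets, as were 5991 of the 10625 tested probes without overlap (38.3% of all tested probes). The second Ghrl probe passed the filter on dim probes through the knockout arrays only, which favours a higher knockout value. By gene, with the brightest tested probe for each, the median change of the 8 hormone genes was 0.03, and that of all 9352 tested genes was 0.06. The plot of changes by setting shows which signs were fixed. Npy and Ins2 kept their sign and their side of the threshold under the 13 alternatives, with Ins2 between 0.03 and 0.25 (adjusted p = 0.164 to 0.872). The other abundant hormones each turned sign under at least 1 alternative, with values between -0.19 and 0.17 and no call.

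**Figure D4:**
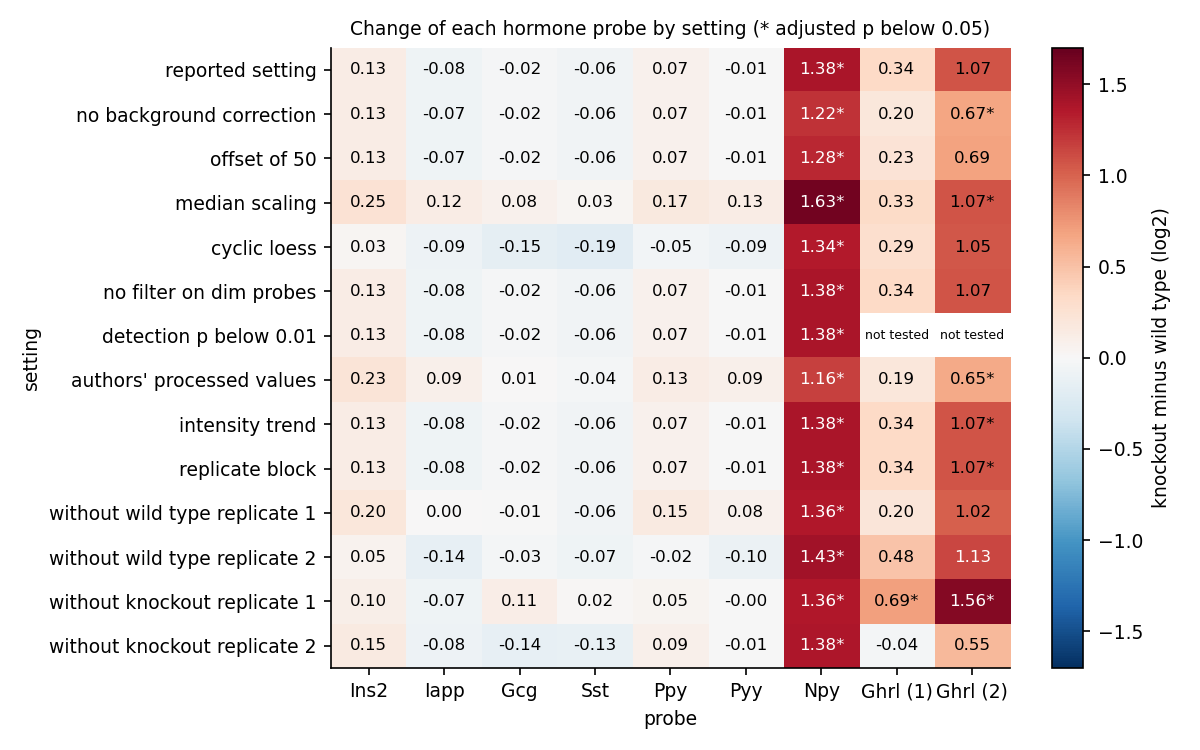
Change of each hormone probe (log2, knockout minus wild type) in the reported setting and under each of the 13 alternatives, with colour for size and direction and an asterisk for an adjusted p below 0.05. Npy is at 1.16 to 1.63 with an asterisk in every row, while values of the 6 abundant hormones stay between -0.19 and 0.25 with none.

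The 8 tested genes of the next list process hormone precursors, aid or restrain that processing, or break peptides down. Of them 1 rose, 1 fell and 6 did not pass. The share over all tested genes was near this (14.5% higher, 11% lower, 25.5% in either direction). Pcsk1, the convertase that cuts proinsulin, went from 211 and 223 in wild type to 429 and 353 in knockout islets. It rose by 0.97 ± 0.14 (SE, log2, adjusted p = 0.00550, limma). Pam, the enzyme that amidates peptides such as Npy, Ppy, Pyy and Iapp at their end, went from 2797 and 3587 to 1541 and 1248. It fell by 1.41 ± 0.15 (adjusted p = 0.00185), while its other tested probe was at -0.20 and not past the test. The list median was 0.06.

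Of 7 tested genes for hormone receptors or their accessory proteins (Ramp1 and Ramp2), 0 passed in limma, beside 25.5% of all tested genes. Among these 7 genes 2 had an unadjusted p below 0.05. The largest values were those of Glp1r, the receptor of the gut product of Gcg, and of Ghsr, the ghrelin receptor. Glp1r lay at background level on both wild type arrays (not well above background). With wild type values raised to the detection level, the ratio was 1.29 on the corrected scale and 1.14 on raw intensities. Glp1r did not pass the test (adjusted p = 0.0541, limma). It passed without knockout 2 (1.16, adjusted p = 0.00718), with no background correction, median scaling, the authors' processed values, the intensity trend and the replicate block (adjusted p = 0.0212 to 0.0420). Ghsr was at -0.44 ± 0.14 (SE, log2, adjusted p = 0.0721) and passed without knockout 1 (-0.57, adjusted p = 0.0423). Of the Npy family receptors on the array, Npy2r was tested. It was not well above background on the wild type arrays and did not pass the test (adjusted p = 0.188).

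Other secreted peptides of nerve and gut endocrine cells were mostly undetected. Of 26 on the array 7 were tested, and 3 fell and 0 rose in limma, with a list median of -0.18. Over all tested genes 11% fell and 14.5% rose. Cartpt, the precursor of an appetite-suppressing peptide also made in islets, went from 263 and 248 in wild type to 117 and 119 in knockout islets. It fell by 1.69 ± 0.13 (SE, log2, adjusted p = 0.000586, limma). Pdyn, the opioid precursor prodynorphin, fell by 0.80 ± 0.15, and Sct, the gut hormone secretin, fell by 0.76 ± 0.14. Pdyn lost its call without wild type 1 or wild type 2 (adjusted p = 0.0697 and 0.0908), and so did Sct (adjusted p = 0.0835 and 0.0841).

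Transcription factors that control the hormone genes were measured at 13 genes, of which 1 rose and 1 fell (5 were called with median scaling). Over all tested genes 14.5% rose and 11% fell. Rfx3, a factor of endocrine differentiation, was not well above background on the wild type arrays and was higher in knockout islets (adjusted p = 0.00305, limma). With wild type values raised to the detection level, its ratio was 1.93 on the corrected scale and 1.44 on raw intensities, without allowance for the spread between arrays. Etv1, a factor found in delta and alpha cells, went from 4606 and 4860.3 to 1996 and 2618 and fell by 1.27 ± 0.19 (SE, log2, adjusted p = 0.00618, limma). Of 8 tested delta, PP and epsilon cell markers 1 rose and 3 fell, also beside 14.5% and 11% of all tested genes. Aqp4, a water channel gene, rose by 2.88 ± 0.12, and Etv1, Cd24a and Asb4 fell. Asb4 was no longer called after leaving out knockout 1 or either wild type array (adjusted p = 0.118 to 0.221), with median scaling (0.136), with no filter (0.0810) and with the intensity trend (0.0510).

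Of 6 tested alpha cell markers other than Gcg, 4 fell (Slc38a5, Rgs4, Slc7a2 and Peg3), or 1 without wild type 1 or without wild type 2. Of 10 tested beta cell markers 2 rose (G6pc2 and Slc2a2), or 1 without wild type 1 or without wild type 2. Slc2a2 was not called when any 1 of the 4 arrays was left out (adjusted p = 0.0522 to 0.198), and G6pc2 was called each time. The other tested probes of Slc7a2, Peg3 and Slc2a2 were at -0.25, -0.29 and 0.23 and not past the test. That of G6pc2 was at 2.02 and past it. These counts stand beside 11% lower and 14.5% higher over all tested genes. The beta cell list holds Iapp, which is also a hormone gene followed here, while the alpha cell list leaves out Gcg. In islet RNA, fewer cells of a type and less RNA per cell cannot be told apart.

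**Figure D5:**
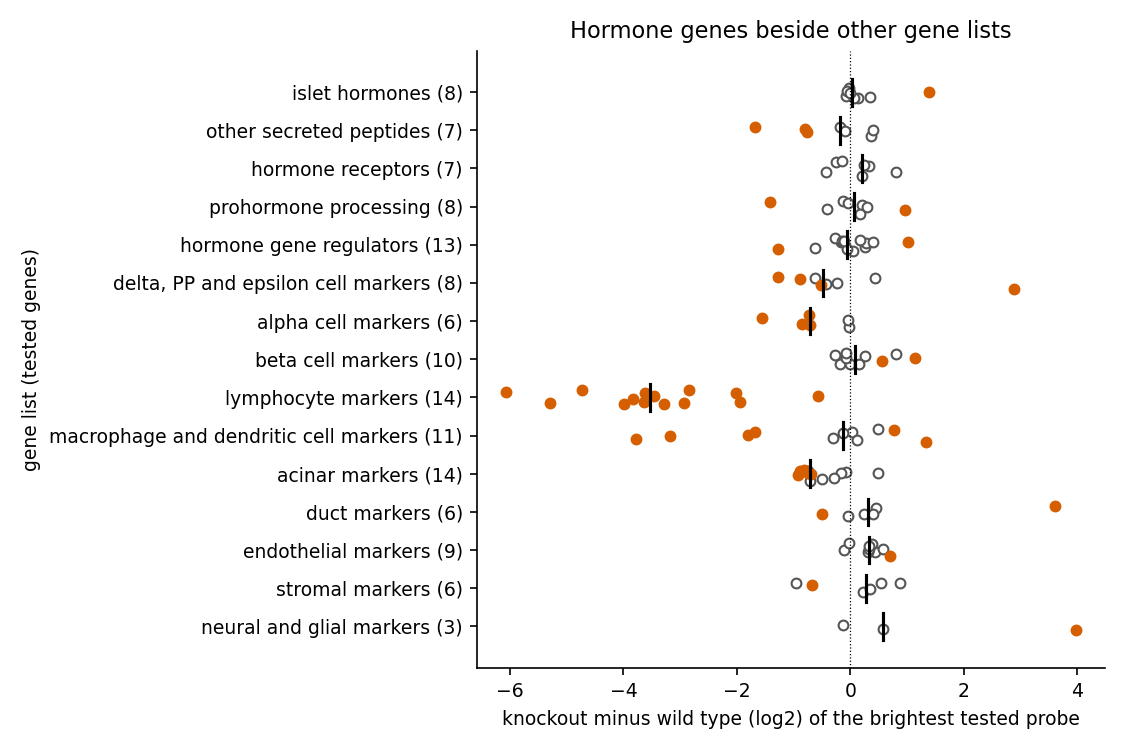
Change (log2, knockout minus wild type) of the brightest tested probe of each gene, by gene list, with the number of tested genes in parentheses, filled points for an adjusted p below 0.05 and a bar at the list median. The hormone genes cluster around 0 with Npy apart at 1.38, while the median of the lymphocyte markers is -3.54.

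Markers of other cells in the islet preparations moved on the same arrays, where 14.5% of all tested genes were called higher and 11% lower. All 14 tested lymphocyte markers fell, with summed raw intensities of 15900 and 16800 in wild type and 1460 and 1840 in knockout islets. Of 14 tested acinar markers 5 fell, with sums of 97400 and 122000 in wild type and 81900 and 86100 in knockout islets, and 0 were called without wild type 2, 1 without knockout 1 and 8 without wild type 1. Among 11 tested markers of macrophages and dendritic cells, 4 fell and 2 rose (sums of 13500 and 16400, and 6430 and 7210). The sums were 7340 and 7180 against 10100 and 8600 for 6 duct markers (1 rose, 1 fell), 8280 and 8090 against 13200 and 11200 for 9 endothelial markers (1 rose), and 2760 and 2610 against 2180 and 3400 for 6 stromal markers (1 fell). Without wild type 1 or wild type 2, 1 duct and 0 endothelial or stromal markers were called. Without knockout 1 the counts were 1 for duct and 0 for endothelial markers, and without knockout 2 the stromal count was 2. The sums are raw intensities without normalization. The probe ranked 1000 on its array had 2635 and 2882 in wild type and 3242 and 3018 in knockout islets, so the sums are not on a common scale. The part of these other cells in the hormone values was not tested.

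Since Npy is also made by nerves, neural and glial markers stand beside its value. Of 9 on the array 3 were tested, with summed raw intensities of 658 and 642 in wild type and 2430 and 1510 in knockout islets. Most of the difference between these sums was in 1 gene, the neurotrophin receptor gene Ngfr, which went from 122 and 138 to 1639 and 955. Th, the enzyme that starts catecholamine synthesis, was at 0.58 ± 0.25 (SE, log2, adjusted p = 0.142, limma). It passed without knockout 2 (adjusted p = 0.0232), with median scaling (0.0495) and with the replicate block (0.0420). The neuronal tubulin gene Tubb3 was at -0.14 ± 0.12 (adjusted p = 0.444). The other 6, among them the sympathetic markers Dbh, Hand2 and Phox2a and the glial markers Sox10, S100b and Gfap, were well above background on none of the 4 arrays. The genes whose pattern was most like that of Npy over the 4 arrays were Fhit, Marchf4 and Dlgap1. Their root mean square distances from Npy, after centring each gene, were 0.0303, 0.0396 and 0.0403 on the log2 scale, and they rose by 1.35, 1.35 and 1.31.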

How the data were processed

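The deposited scanner table gives, per the file headers, a linear bead intensity (the mean over beads), its standard error, a count of beads and a detection p-value against negative control beads, for 4 arrays. The authors' deposited processed table holds log2 values of 46614 probes. Wild type 1 there equals the log2 raw intensity to within 5e-09, and the other columns keep the order of their raw values, so scale and centring are known while the sources used here do not give the normalization method. Array medians of these deposited log2 values were 6.35, 6.35, 6.35 and 6.34.

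Background was corrected by normexp through the detection p-values (offset 16) in limma 3.58.1 and R 4.3.3, followed by log2 and quantile normalization. Knockout was compared with wild type by lmFit and eBayes over the 15639 probes tested, with Benjamini-Hochberg adjustment at 0.05, and the fit was checked on simulated data. The alternatives were the background correction, offset, normalization, filter, authors' values, intensity trend, replicate block and leaving out each array. Gene names came from the platform annotation, where 29965 probes had 1 symbol, 10 had several and 16657 were unlisted. A gene in a list was its brightest tested probe, kept under every alternative. Named genes were all hormone probes and, per list, up to 4 past the threshold by size, or the 2 largest changes. The members and lists were chosen with earlier results of these data known. The number of arrays limits the precision, and the tables carry no slide or scan information.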

Additional observations from a re-analysis of the deposited data

How the results depend on the processing

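The number of hormone probes past the threshold was 1, and 2 with no background correction, with median scaling, with the authors' processed values, with the intensity trend and with the replicate block, and 1 to 3 when 1 array was left out. The added call was the second Ghrl probe (0.67, 1.07, 0.65, 1.07 and 1.07, adjusted p = 0.0412, 0.0230, 0.0391, 0.0368 and 0.0196), which ranged from 0.55 to 1.56 when 1 array was left out. The first Ghrl probe ranged from -0.038 to 0.69 there. With a detection limit of 0.01 neither Ghrl probe was tested. Signs turned with median scaling for Iapp (0.12), Gcg (0.077), Sst (0.033) and Pyy (0.13), with the authors' values for Iapp (0.093), Gcg (0.0098) and Pyy (0.088), and with cyclic loess for Ppy (-0.052). When 1 array was left out the ranges were -0.14 to 0.0047 for Iapp, -0.14 to 0.11 for Gcg, -0.13 to 0.019 for Sst, -0.018 to 0.15 for Ppy and -0.10 to 0.078 for Pyy. Bmpr1a was at 0.013 with median scaling. Over all probes the counts were 3517 higher with median scaling, and 664 to 2212 higher and 812 to 1769 lower when 1 array was left out. Fits without an array assume that the lone array varies like the other genotype. The cause of these shifts was not tested. Deviations of arrays with the same replicate number correlated at 0.0181, so the numbers were not taken as pairs.

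Called members ranged over the alternatives from 1 to 4 for other secreted peptides (reported 3), 0 to 2 for receptors (0), 2 to 5 for regulators (2), 1 to 5 for alpha cell markers (4), 1 to 4 for beta cell markers (2), 0 to 10 for acinar (5), 1 to 4 for duct (2), 0 to 5 for endothelial (1), 0 to 4 for stromal (1) and 1 to 2 for neural markers (1). Signal over background limits the Ghrl values, and the flat upper end of the intensity curve limits those of the 6 abundant hormones.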
